A study of Rattus norvegicus with 100 samples.

Results

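The peroxisomal fatty acid oxidation enzymes followed here are 9 genes of the rat, Ehhadh, Acox2, Acaa1a, Hsd17b4, Decr2, Scp2, Hacl1, Abcd2 and Abcd3, described in primary hepatocytes over 5 concentrations and 5 times of exposure to GW7647. Each gene was represented by the probe set that carries its symbol alone and has the highest mean over all arrays. Such a probe set existed for 7 of the 9 genes, out of 13439 genes represented in this way. All probe sets that name Acaa1a or Decr2 name other genes too, so these 2 genes have no value of their own, and the shared probe sets are described separately. Abcd2 stayed under the floor of log2 5 on every array, which left 6 members among the 8843 genes tested.

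Peroxisomes shorten fatty acids that mitochondria handle poorly, such as very long, branched and dicarboxylic chains and the side chains of bile acid precursors. Transporters of the membrane (Abcd2 and Abcd3) carry the acyl-CoAs in, and an oxidase begins each cycle (Acox2 for bile acid precursors). A bifunctional enzyme then hydrates and dehydrogenates (Ehhadh or Hsd17b4), and a thiolase cuts (Acaa1a, or the longer product of Scp2). Hacl1 cleaves hydroxyacyl-CoAs in α-oxidation, and Decr2 reduces double bonds so that unsaturated chains can be degraded. In rodent liver many enzymes of this pathway are known targets of PPARα, the nuclear receptor that GW7647 activates.

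Hepatocytes came from 4 rats, labelled Rs627, Rs628, Rs631 and Rs632, and the age, strain and sex of the animals are not given in the sources used here. Cultures were exposed to GW7647 at 0.001, 0.01, 0.1, 1 or 10 µM, or to none (0 µM), for 2, 6, 12, 24 or 72 h, which gave 30 groups of 2 to 4 arrays and 100 arrays in all. The cells were held on collagen IV with a Geltrex overlay in William E medium with a maintenance supplement, and no solvent control is described for the 0 µM cultures. One animal gave cultures to many groups, so p-values measure the spread between cultures of these 4 rats. The concentrations at one time share their 0 µM arrays, so their changes are not independent of each other.

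All 7 hepatocyte markers with a probe set, among them Alb and Ttr, lay above the floor on all arrays. The markers Cd163, Clec4f, Csf1r and Ptprc of macrophages, Lrat, Des and Col1a1 of stellate cells and all 5 measured endothelial markers were above it on 0 arrays. Of the other markers, 1 of 5 for macrophages, 3 of 6 for stellate cells and 4 of 5 for bile ducts were above it on some or all arrays. These included Cd68 of macrophages on 24 arrays, and Col3a1, Acta2 and Col1a2 of stellate cells on 99, 97 and 83 arrays. The 75th percentile of an array ranged from 6.42 to 7.27, and 5 arrays lay under 6.6. None of these was at 0 µM, and all had plate positions that recur among the labels. They were Rs631 at 0.1 µM and 2 h and Rs627 at 10 µM and 6 h. At 24 h they were Rs631 and Rs632 at 1 µM and Rs631 at 10 µM. At 12 h the 0 µM arrays labelled Rs627 and Rs628 each resembled another rat more than their own label (mean correlation of deviations -0.02 with the other Rs627 arrays against 0.70 with Rs628 for the first, and -0.21 with Rs628 against 0.46 with Rs627 for the second), and results at 12 h are given with and without them where they differ.

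Within the members, GW7647 raised 5 of the 6 tested genes by 72 h, at 0.1, 1 and 10 µM. At that time 8.82%, 26.8% and 28% of all genes were called at these concentrations, in either direction. No member was called lower at any of the 25 combinations of concentration and time. Ehhadh and Hacl1 rose most, Abcd3 and Hsd17b4 less, and Scp2 late and little, while Acox2 did not pass in the model without the rat. With the rat as a replicate block Acox2 passed at 24 h at 0.1, 1 and 10 µM and at 72 h at 1 and 10 µM. The promoters of the 4 genes that moved most closely together are printed here, because they are the stretches at which a shared pattern could be looked for. They run from 250 bases before to 50 bases after the RefSeq gene start in assembly GRCr8, 5′ to 3′ on the strand of the gene. Capitals mark GC boxes (GGGCGG) and CCAAT boxes on either strand, so that CCGCCC and ATTGG are their reverse complements. The Ehhadh stretch is chr11:92746159-92746458 on the plus strand, Hacl1 is chr16:6869361-6869660 on the minus strand, Abcd3 is chr2:212590330-212590629 on the minus strand and Hsd17b4 is chr18:45515177-45515476 on the plus strand.
Ehhadh: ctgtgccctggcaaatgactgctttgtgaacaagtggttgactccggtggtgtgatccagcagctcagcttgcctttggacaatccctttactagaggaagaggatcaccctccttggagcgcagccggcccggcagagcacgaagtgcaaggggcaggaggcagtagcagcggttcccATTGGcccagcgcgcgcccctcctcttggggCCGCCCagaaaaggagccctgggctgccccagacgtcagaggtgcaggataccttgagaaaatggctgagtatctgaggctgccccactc
Hacl1: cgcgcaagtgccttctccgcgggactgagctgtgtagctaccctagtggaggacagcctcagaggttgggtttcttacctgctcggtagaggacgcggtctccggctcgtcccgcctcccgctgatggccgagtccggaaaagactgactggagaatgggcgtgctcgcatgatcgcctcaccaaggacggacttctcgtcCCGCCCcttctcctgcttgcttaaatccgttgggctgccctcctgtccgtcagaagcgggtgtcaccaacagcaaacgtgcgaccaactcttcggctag
Abcd3: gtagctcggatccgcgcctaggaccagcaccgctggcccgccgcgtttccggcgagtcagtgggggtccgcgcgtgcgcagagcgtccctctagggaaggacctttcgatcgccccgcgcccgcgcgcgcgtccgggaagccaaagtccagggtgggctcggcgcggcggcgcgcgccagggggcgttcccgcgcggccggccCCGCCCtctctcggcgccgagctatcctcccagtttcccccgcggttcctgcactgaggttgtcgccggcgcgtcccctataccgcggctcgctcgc
Hsd17b4: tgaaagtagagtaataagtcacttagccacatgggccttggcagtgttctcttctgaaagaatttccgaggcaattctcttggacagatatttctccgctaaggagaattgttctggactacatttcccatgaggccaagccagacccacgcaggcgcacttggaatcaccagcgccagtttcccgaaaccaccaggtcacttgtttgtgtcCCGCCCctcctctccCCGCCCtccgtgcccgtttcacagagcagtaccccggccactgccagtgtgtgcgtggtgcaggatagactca

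These 4 stretches held 60.7% G and C for Ehhadh, 61.3% for Hacl1, 75% for Abcd3 and 54% for Hsd17b4, against a median of 51.7% over 33469 promoters of the same length. The GC box was found in 8 of the 9 members, all but Acox2, and in 33.1% of all promoters. The CCAAT box was found in 5 members, Ehhadh, Acox2, Acaa1a, Decr2 and Abcd2, and in 37.5% of all promoters. PPARα binds with its partner RXR to direct repeats of a short core. A pair of AGGNCA cores in the same direction with 1 base of any kind between them, on either strand, was in 0 of the 9 members and in 0.415% of all promoters, and the single core AGGTCA was in Hsd17b4 and Abcd2 and in 16.2% of all promoters. Matches overlap where a pair holds the single core. They describe the letters of these windows only.

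Of the 2 transporters, Abcd3 (which carries branched-chain and dicarboxylic acyl-CoAs and bile acid precursors) rose, and Abcd2 (a carrier of very long chains, high in brain and fat) stayed under the floor. At 72 h Abcd3 had log2 values of 11.63, 11.58, 11.63 and 11.52 at 1 µM and 10.57, 9.74, 10.34 and 10.04 at 0 µM, in the order Rs627, Rs628, Rs631 and Rs632. All 4 arrays at 1 µM lay above all 4 at 0 µM, and the arrays at 1 µM were closer to each other than those at 0 µM. The mean was 11.59 ± 0.05 at 1 µM and 10.17 ± 0.36 at 0 µM (SD, n = 4 each), a log2 change of 1.42 ± 0.15 (SE), or 2.67-fold (limma, adjusted p = 5.99e-12). At 6 h the arrays at 1 µM held 11.25 to 11.45 and those at 0 µM 9.96 to 10.57, a log2 change of 1.02 ± 0.15 (adjusted p = 9.44e-07). At 2 h the change was 0.35 at 1 µM (adjusted p = 1), and the groups overlapped. At 10 µM and 2 h it was 0.45 (adjusted p = 0.325), and passed with the rat as a replicate block (0.48, adjusted p = 0.00795). Abcd2 ranged from 2.65 to 4.05 over the 100 arrays and was above log2 5 on 0 of them, so that nothing can be said of its change.

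Hacl1, the lyase of α-oxidation, had the largest log2 change after Ehhadh at 1 µM at each of the 5 times. At 72 h its log2 values were 11.63, 11.49, 11.27 and 11.55 at 1 µM and 8.20, 8.08, 8.35 and 8.10 at 0 µM, in the same order of rats. The groups lay about 3 log2 units apart with no overlap, in all 4 rats. The means were 11.48 ± 0.15 at 1 µM and 8.18 ± 0.12 at 0 µM (SD, n = 4 each), a log2 change of 3.30 ± 0.24 (SE), or 9.86-fold (limma, adjusted p = 2.33e-19). At 2 h Hacl1 held 9.34, 8.61 and 8.67 at 1 µM (Rs628, Rs631, Rs632) and 8.67, 7.98 and 8.02 at 0 µM (Rs627, Rs631, Rs632). Both rats with arrays in both groups were higher at 1 µM, yet the groups overlapped and the change of 0.65 ± 0.28 (SE) did not pass (adjusted p = 1). By 6 h the change was 2.06 ± 0.24 (adjusted p = 7.14e-10), by 12 h 2.88 and by 24 h 3.18.

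Acox2, the oxidase that begins the shortening of bile acid precursors, did not pass at any of the 25 combinations in the model without the rat. At 24 h it held 9.88, 9.39, 8.60 and 9.76 at 1 µM (Rs627, Rs628, Rs631, Rs632) and 9.08, 8.04 and 8.61 at 0 µM (Rs627, Rs631, Rs632). Each of the 3 rats with both arrays was higher at 1 µM, but the groups overlapped, with Rs631 the lowest in each. The means were 9.41 ± 0.58 at 1 µM (SD, n = 4) and 8.58 ± 0.52 at 0 µM (SD, n = 3), a log2 change of 0.83 ± 0.34 (SE; limma, adjusted p = 0.057). With the rat as a replicate block the change was 0.82 (adjusted p = 0.000169). It also passed with quantile normalization (0.91, adjusted p = 0.0372) and without Rs631 (0.83, adjusted p = 0.0299). At 72 h Acox2 held 9.21, 8.98, 8.30 and 8.97 at 1 µM and 8.53, 8.18, 8.16 and 8.52 at 0 µM, a log2 change of 0.52 ± 0.32 (SE; adjusted p = 0.238, and 0.00963 with the replicate block). At 2 and 6 h its changes at 1 µM were -0.32 and -0.11 (adjusted p = 1 and 0.992). The block also gave calls at 24 h for 0.1 µM (adjusted p = 0.00396) and 10 µM (0.00181) and at 72 h for 10 µM (0.00242). Of all genes, the model with the block called 12.9%, 49.8% and 34.2% at 24 h for 0.1, 1 and 10 µM. At 72 h it called 40.3% and 41.1% for 1 and 10 µM.

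**Figure D1:**
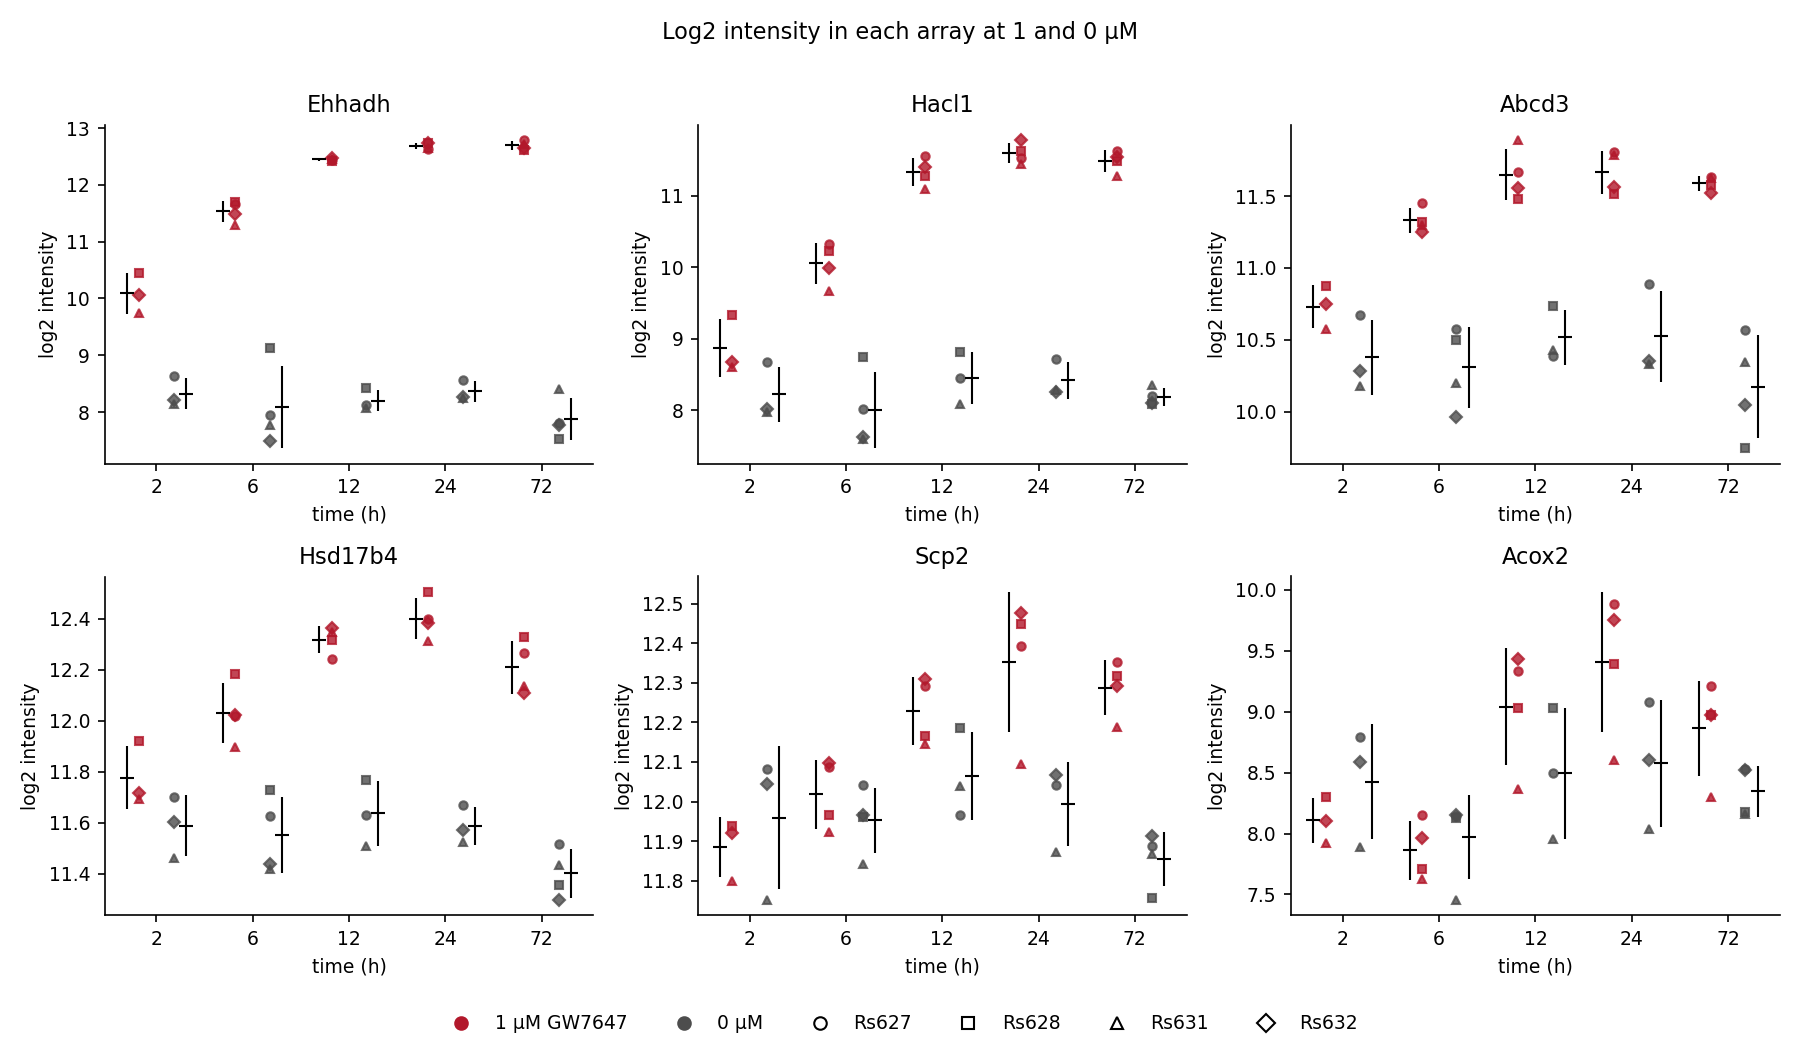
Log2 intensity (vertical axes, each panel with its own range) of the 6 tested members by time in hours, on each array at 1 µM (red, left) and 0 µM (grey, right), with marker shape for the rat and a bar for the mean and SD of the group. Ehhadh is separated at 1 µM from 2 h on, Hacl1, Abcd3 and Hsd17b4 from 6 h on, Scp2 from 24 h on, and the Acox2 groups overlap at each of the 5 times.

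Of the bifunctional enzymes, Ehhadh rose most of all members and Hsd17b4 by less than 1 log2 unit. Ehhadh (the L-bifunctional protein, best known for dicarboxylic acids) was the only member that passed at 2 h, the earliest time. Its arrays at 2 h held 10.46, 9.75 and 10.06 at 1 µM (Rs628, Rs631, Rs632) and 8.63, 8.13 and 8.21 at 0 µM (Rs627, Rs631, Rs632). No array at 1 µM lay within the 0 µM range, and the log2 change was 1.76 ± 0.28 (SE), or 3.40-fold (limma, adjusted p = 4.58e-05). At 6 h it held 11.67, 11.70, 11.30 and 11.48 at 1 µM and 7.94, 9.13, 7.76 and 7.49 at 0 µM, in the order Rs627, Rs628, Rs631 and Rs632. The 0 µM array of Rs628 was the highest at 0 µM, and was still below every array at 1 µM. The change at 6 h was 3.46 ± 0.24 (SE; adjusted p = 1.44e-18).

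At 72 h Ehhadh held 12.78, 12.62, 12.73 and 12.65 at 1 µM and 7.81, 7.53, 8.41 and 7.77 at 0 µM. The means were 12.70 ± 0.07 at 1 µM and 7.88 ± 0.37 at 0 µM (SD, n = 4 each), a log2 change of 4.82 ± 0.24 (SE), or 28.2-fold (adjusted p = 2.34e-27). Values at 1 and 10 µM from 12 h on lay between 12.41 and 12.88, and the highest value of the whole table was 13.8. At 12 and 24 h the changes at 1 µM were 4.25 and 4.33.

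Hsd17b4, the D-bifunctional protein, which serves branched and very long chains, had the smallest residual spread of the members. At 72 h it held 12.27, 12.33, 12.14 and 12.11 at 1 µM and 11.52, 11.36, 11.44 and 11.30 at 0 µM. All 4 rats were higher at 1 µM and the groups did not overlap. The means were 12.21 ± 0.10 at 1 µM and 11.40 ± 0.09 at 0 µM (SD, n = 4 each), a log2 change of 0.81 ± 0.07 (SE), or 1.75-fold (limma, adjusted p = 3.13e-15). The change at 1 µM was 0.19 at 2 h (adjusted p = 1), 0.48 ± 0.07 (SE) at 6 h (adjusted p = 1.2e-06), 0.68 at 12 h and 0.81 at 24 h. The residual SD of Hsd17b4 was 0.0954, and 3.0% of all genes had a lower one.

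Scp2 has a longer product, the thiolase for branched chains, and a shorter product that binds sterols and lipids. Of the thiolases, Scp2 changed late and by little in the probe set used. At 72 h it held 12.35, 12.32, 12.19 and 12.29 at 1 µM and 11.89, 11.76, 11.87 and 11.91 at 0 µM. The lowest array at 1 µM was above the highest at 0 µM. The means were 12.29 ± 0.07 at 1 µM and 11.86 ± 0.07 at 0 µM (SD, n = 4 each), a log2 change of 0.43 ± 0.09 (SE), or 1.35-fold (limma, adjusted p = 8.7e-05). At 24 h the change was 0.36 ± 0.10 (adjusted p = 0.00319), and it was no longer past the threshold without Rs632 (adjusted p = 0.0681) or with the compared times fitted alone (0.0532). At 2, 6 and 12 h it was -0.07, 0.07 and 0.17, none past the threshold. A second probe set of Scp2 alone (1387896_PM_at, mean 11.05) changed more at 1 µM from 12 h on. It gave 0.37 ± 0.13 at 12 h (limma, adjusted p = 0.0872), 0.58 ± 0.13 at 24 h (adjusted p = 0.000431) and 0.72 ± 0.12 at 72 h (adjusted p = 1.85e-06). The levels of both probe sets correlated over the 100 arrays (Pearson r = 0.958, over arrays that share rats and groups), and the remaining one (1381088_PM_at) never exceeded log2 5.

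The probe set 1387783_PM_a_at, annotated with both Acaa1a and Acaa1b, the paralogous thiolases of straight chains in rodents, rose at all 5 times at 1 µM. At 72 h it held 13.02, 12.94, 13.09 and 13.01 at 1 µM and 10.50, 10.19, 10.51 and 9.90 at 0 µM. Every array at 1 µM lay more than 2 log2 units above every array at 0 µM. The log2 change was 0.99 at 2 h (limma over every probe set, adjusted p = 0.00572), 1.61 at 6 h (3.75e-10), 2.03 at 12 h, 2.53 at 24 h and 2.74 ± 0.18 (SE) at 72 h, or 6.70-fold (3.77e-21). Which of the paralogues gave the signal cannot be told apart.

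For Decr2, the reductase needed for unsaturated chains, 3 probe sets are annotated with Rab11fip3, Decr2 and Nme4 together. One, 1370818_PM_at, held 11.88, 11.64, 11.43 and 11.63 at 1 µM and 9.53, 8.98, 9.28 and 9.15 at 0 µM at 72 h. Its groups did not overlap, and its log2 change was 2.41 ± 0.18 (SE), or 5.30-fold (adjusted p = 6.28e-19), after 0.30 at 2 h (adjusted p = 1), 1.08 at 6 h (1.03e-05), 1.83 at 12 h and 2.37 at 24 h. The other two, 1372959_PM_at and 1389129_PM_at, did not pass at 1 µM at any of the 5 times. The 3 probe sets of this annotation thus did not give the same calls, and no value is assigned to Decr2. Its mitochondrial counterpart Decr1 changed by 0.13, 0.42 (adjusted p = 0.078, and 5.81e-06 with the rat as a replicate block), 0.67, 0.93 ± 0.14 (SE; adjusted p = 2.94e-07) and 1.14 at 2, 6, 12, 24 and 72 h. Of every probe set past the filter (15873), named or not, 0.34%, 1.64%, 4.54%, 24.7% and 22.4% passed at 1 µM at these times.

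Over time at 1 µM, the members called higher were 1, 4, 4, 5 and 5 of 6 at 2, 6, 12, 24 and 72 h. The median log2 change of the 6 members was 0.27, 0.75, 0.91, 0.99 and 1.11 at these times, against 0.01, -0.06, -0.02, -0.23 and -0.06 for all genes. The share of all tested genes called was 0.373%, 2.04%, 5.41%, 29.6% and 26.8% in the same order. So the members' calls at 6 and 12 h stood against a background of a few percent, and those at 24 and 72 h against more than 1 gene in 4. These shares count both directions, while the members' calls were all upward. Of the 8843 genes, 31, 153, 350, 624 and 998 were called higher at the 5 times, and 2, 27, 128, 1995 and 1375 lower. At 24 h the 1 µM arrays of Rs631 and Rs632 were of low signal, and counts of all genes without them are not given. No member was called lower in any of the 25 combinations with limma, and 0 of 150 member values were lower at an unadjusted p under 0.05.

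The change at 72 h exceeded the change at 2 h for 5 of 6 members when the difference itself was tested (8.66% of all genes passed that test). It was larger by 3.05 for Ehhadh (adjusted p = 4.81e-09), 2.65 for Hacl1, 1.06 for Abcd3, 0.62 for Hsd17b4 and 0.50 for Scp2 (adjusted p = 0.00912). For Acox2 the difference was 0.84 (adjusted p = 0.341), and 0.72 with the rat as a replicate block (adjusted p = 0.0403). Without Rs627, Rs628 or Rs632 the Scp2 difference was 0.43, 0.49 and 0.50 in turn, with an adjusted p of 0.118, 0.0554 and 0.128. Between 6 and 2 h 0 of 6 members differed past the threshold (0% of all genes; 4 members at an unadjusted p under 0.05), and Ehhadh (1.64, adjusted p = 0.0155) and Hacl1 (1.31, adjusted p = 0.0231) did with the replicate block (0.102% of all genes). Between 72 and 24 h 0 of 6 differed (0.0226% of all genes; 0 at an unadjusted p under 0.05).

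As a share of its log2 change at 72 h, Ehhadh had reached 36.6%, 71.7%, 88.2% and 89.8% by 2, 6, 12 and 24 h. Hacl1 had reached 19.6%, 62.3%, 87.3% and 96.2% by these times. Abcd3 stood at 24.9%, 72.2%, 80.0% and 80.7%, and Hsd17b4 at 23.3%, 59.0%, 84.2% and 100.4%. Each of these 4 genes had reached 59.0% or more of its 72 h change by 6 h. Scp2 stood at -17.0%, 15.2%, 38.2% and 83.3%, a later course in these means. Whether its timing differs from that of the other members was not tested.

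In the cultures without GW7647, 72 h was tested against 2 h alone. Movement at the times between was not tested, such as for Acox2, which averaged 7.97 ± 0.34 at 6 h (SD, n = 4) and 8.58 ± 0.52 at 24 h (SD, n = 3). Between 72 and 2 h at 0 µM 0 of 6 members passed, where 3.4% of all genes did (1 member at an unadjusted p under 0.05). Ehhadh averaged 7.88 ± 0.37 at 72 h (SD, n = 4) and 8.33 ± 0.27 at 2 h (SD, n = 3), a difference of -0.45 with a 95% interval of -0.97 to 0.08. Hsd17b4 differed by -0.19 (adjusted p = 0.168), and by -0.21 with the replicate block (adjusted p = 0.0164).

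More members were called at 0.1 µM than at 0.01 µM at each of the 5 times. At the lowest concentration, 0.001 µM, 0 of 6 members passed at 2, 6, 12, 24 and 72 h, where 0% of all genes passed at each of these times (limma; at an unadjusted p under 0.05, 1 member, Ehhadh at 72 h). At 0.01 µM the members called were 0, 0, 1, 1 and 3 over the 5 times, against 0.0113%, 0%, 0.0339%, 0.136% and 0.418% of all genes. At 0.1 µM they were 1, 4, 4, 4 and 5, against 0.192%, 0.916%, 1.55%, 4.32% and 8.82%. Without Rs627 or Rs631 none passed at 0.1 µM and 2 h, and without Rs631 or Rs632 2 passed at 6 h. Without Rs632 1 member passed at 0.01 µM and 72 h. At 10 µM they were 1, 4, 4, 5 and 5, against 1.02%, 4.3%, 7.95%, 17.1% and 28%.

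**Figure D2:**
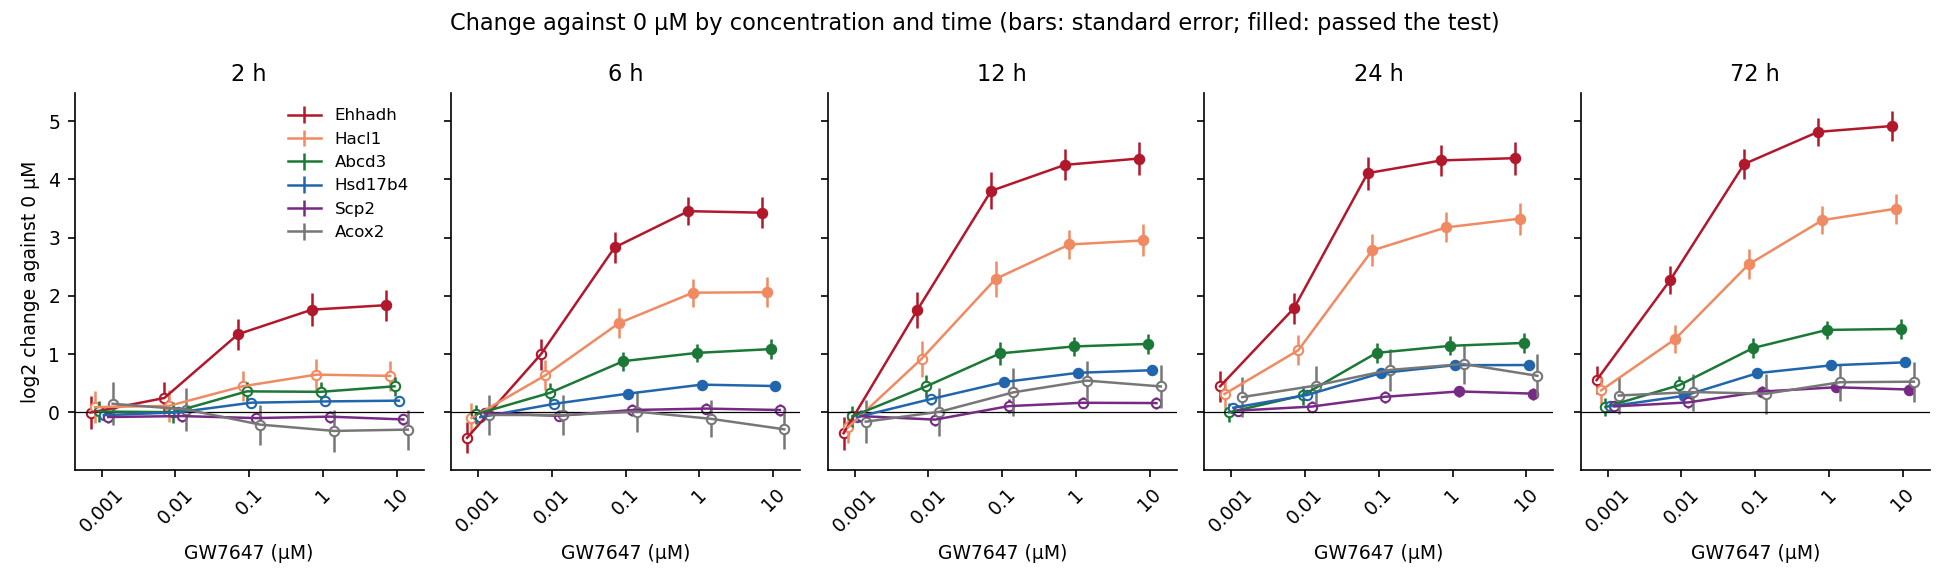
Log2 change against 0 µM (vertical axis, bars for the SE of the model) by GW7647 concentration in µM (log axis), a panel for each time, for the 6 tested members; filled points passed the test. Ehhadh reaches 4.92 at 10 µM and 72 h, and every point at 0.001 µM is open.

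At 0.01 µM and 72 h Ehhadh, Hacl1 and Hsd17b4 passed. Ehhadh held 10.64, 10.00, 10.37 and 9.62 at 0.01 µM, against 7.81, 7.53, 8.41 and 7.77 at 0 µM. Its groups did not overlap, and its log2 change was 2.28 ± 0.24 (SE), or 4.85-fold (limma, adjusted p = 4.61e-10). Hacl1 held 9.84, 9.35, 9.13 and 9.43 at 0.01 µM, against 8.20, 8.08, 8.35 and 8.10 at 0 µM, a log2 change of 1.25 ± 0.24 (SE; adjusted p = 0.00109, and 0.0712 without Rs632). Hsd17b4 differed by 0.28 ± 0.07 (SE; adjusted p = 0.0455), a call that remained in 7 of 18 alternatives. Abcd3 differed by 0.47 ± 0.15 (SE; adjusted p = 0.229, and 0.00583 with the replicate block).

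Earlier, 0.01 µM gave a call for Ehhadh alone. At 12 h Ehhadh held 9.90 and 10.02 at 0.01 µM (Rs628, Rs631), against 8.12, 8.42 and 8.07 at 0 µM (Rs627, Rs628, Rs631), a log2 change of 1.76 ± 0.32 (SE; adjusted p = 0.00361). Without the 0 µM arrays of Rs627 and Rs628 the change was 1.89 (adjusted p = 0.147), and without Rs627, Rs628 or Rs631 the adjusted p was 0.0568, 0.062 and 0.963. At 24 h Ehhadh changed by 1.79 ± 0.26 (SE; adjusted p = 2.62e-05, and 0.271 without Rs631), or 3.45-fold. With the replicate block Ehhadh passed at 6 h too (1.06, adjusted p = 0.028), Hacl1 at 12 h (adjusted p = 0.0212) and 24 h (0.000708), and Hsd17b4 at 24 h (0.00751), which made the counts at 6, 12 and 24 h 1, 2 and 3. The model with the block called 0.113%, 0.192% and 0.418% of all genes at these times. With the block and without the 0 µM arrays of Rs627 and Rs628 at 12 h, Hacl1 did not pass at 12 h (adjusted p = 0.258) and the count there was 1. At 0.1 µM and 24 h Scp2 changed by 0.27 (adjusted p = 0.15), and passed with the block (0.00115). Its second probe set passed there without the block (0.54, limma, adjusted p = 0.00853).

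Averaged over the 5 times, the step from 0.01 to 0.1 µM was the largest in size for the 4 genes that passed it. At 0.001 µM against 0 µM 0 of 6 members passed (0% of all genes; 0 at an unadjusted p under 0.05). At 0.01 µM against 0 µM 4 passed (0.69% of all genes), Ehhadh by 1.41 (95% interval 1.17 to 1.66), Hacl1 by 0.80, Abcd3 by 0.31 and Hsd17b4 by 0.19. With one value per rat in place of the arrays 0 of these passed, Ehhadh and Hacl1 at an adjusted p of 0.0993, and without Rs631 2 passed. At 0.1 µM against 0.01 µM the same 4 passed (4.08% of all genes), Ehhadh by 1.86 (1.60 to 2.11), Hacl1 by 1.12, Abcd3 by 0.57 and Hsd17b4 by 0.28. The Scp2 step was 0.13 (adjusted p = 0.112, and 0.00375 with the replicate block). In its second probe set the step was 0.23 and passed without the block (limma, adjusted p = 0.0156).

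The steps above 0.1 µM were smaller. At 1 µM against 0.1 µM Ehhadh rose by 0.45 (95% interval 0.21 to 0.69, adjusted p = 0.0396) and Hacl1 by 0.49 (0.26 to 0.73, adjusted p = 0.0139), where 1.06% of all genes passed. The Ehhadh call remained in 8 of 18 alternatives, and no member or 1 passed when any single rat was left out. Hsd17b4 differed by 0.12 (adjusted p = 0.0869, and 0.00916 with the replicate block). At 10 µM against 1 µM 0 of 6 members passed (0% of all genes; 0 at an unadjusted p under 0.05). The intervals of that step were -0.18 to 0.30 for Ehhadh, -0.15 to 0.31 for Hacl1, -0.09 to 0.20 for Abcd3, -0.05 to 0.09 for Hsd17b4, -0.12 to 0.05 for Scp2 and -0.40 to 0.22 for Acox2. A further rise of more than 0.31 thus lay outside the interval of each of the 6 members.

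At 72 h the change at each lower concentration was set against that at 10 µM. Of its change at 10 µM, Ehhadh reached 46.3% at 0.01 µM, 86.7% at 0.1 µM and 98.0% at 1 µM. Hacl1 reached 35.9%, 72.6% and 94.3%, Abcd3 32.6%, 77.1% and 98.8%, Hsd17b4 32.9%, 78.4% and 94.0%, and Scp2 43.7%, 91.0% and 110% at these concentrations. At 0.001 µM no member passed, and the shares were 11.3% (Ehhadh), 10.8% (Hacl1), 6.4% (Abcd3), 12.1% (Hsd17b4) and 26.1% (Scp2). Each of the 5 genes had reached 72.6% or more of its change at 0.1 µM. These shares are ratios of log2 changes over the same 0 µM arrays and carry the errors of both, and differences between the genes were not tested.

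**Figure D3:**
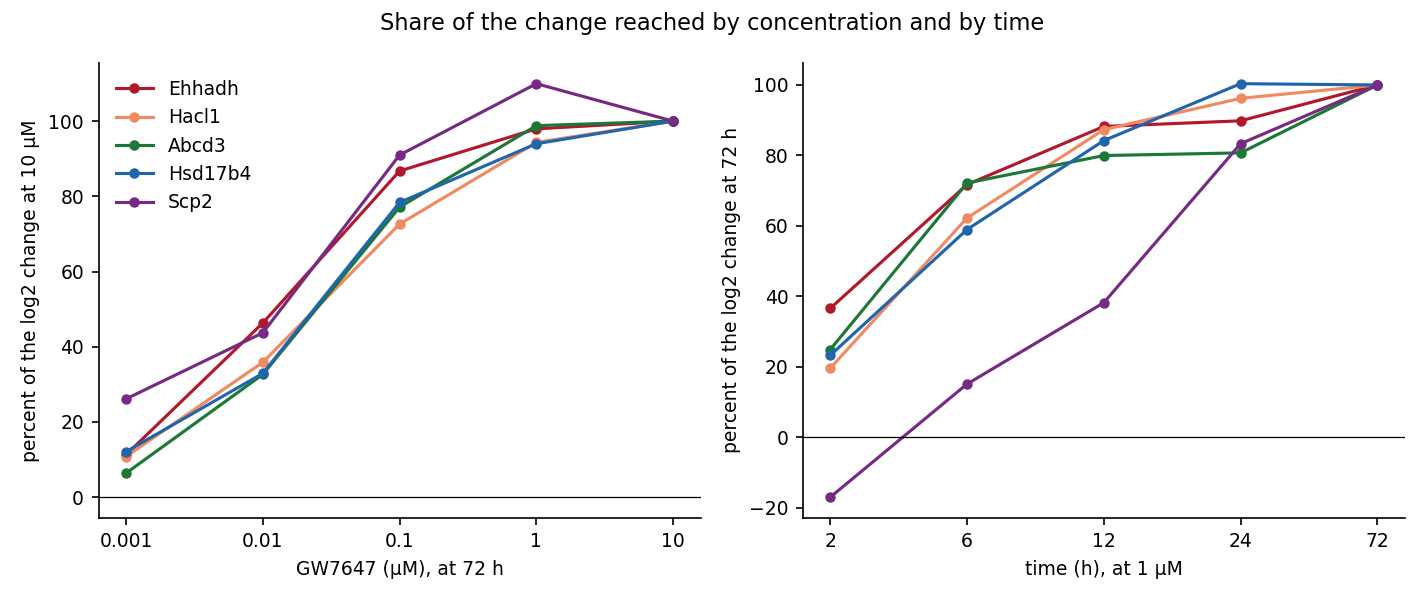
Left, the log2 change at 72 h as a percent of that at 10 µM, by GW7647 concentration in µM (log axis). Right, the log2 change at 1 µM as a percent of that at 72 h, by time in hours (evenly spaced). Lines join the 5 members that rose; by concentration they span 32.6% to 46.3% at 0.01 µM, and by time Scp2 stands lower until 12 h (38.2%).

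Over the 30 group means, the profiles of Ehhadh, Hacl1, Abcd3 and Hsd17b4 had Pearson correlations of 0.966 to 0.984 with each other. Scp2 correlated with these 4 at 0.800 to 0.897, and Acox2 with the other members at 0.471 to 0.764. Outside the members, the tested genes most like the mean of the standardized member profiles were Ephx2 (soluble epoxide hydrolase, 0.991), Fbp1 (fructose bisphosphatase of gluconeogenesis, 0.990), Acadm (0.986) and Acaa2 (0.983) of mitochondrial β-oxidation, and Slc25a20 (the carnitine carrier, 0.981). Most like Ehhadh alone were Gk (glycerol kinase, 0.991), Acsl1 (acyl-CoA synthetase, 0.990), Cyp4a1 (ω-hydroxylase, 0.986), Pex11a (a peroxin of peroxisome division, 0.984) and Acaa2 (0.982). The points share their rats, times and concentrations, so these correlations describe the group means only.

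The level of the members differed between rats, most for Acox2. For Acox2, arrays of Rs631 lay 0.464 below their group mean on average, with 0 of 30 above it, and arrays of Rs627 lay 0.376 above, with 21 of 22 above it. Adding the rat to the model brought the residual SD of Acox2 to 0.240 with the rat, against 0.455 without it, which is higher than for 87.0% of all genes. Hacl1 and Abcd3 were higher in Rs627 too, by 0.309 and 0.206, each with 21 of 22 arrays above the group mean. Ehhadh was higher in Rs627 (0.185) and lower in Rs632 (-0.201), and 2 of 30 Rs631 arrays lay above the mean for Scp2. Whether the change itself differs between rats was not tested.

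**Figure D4:**
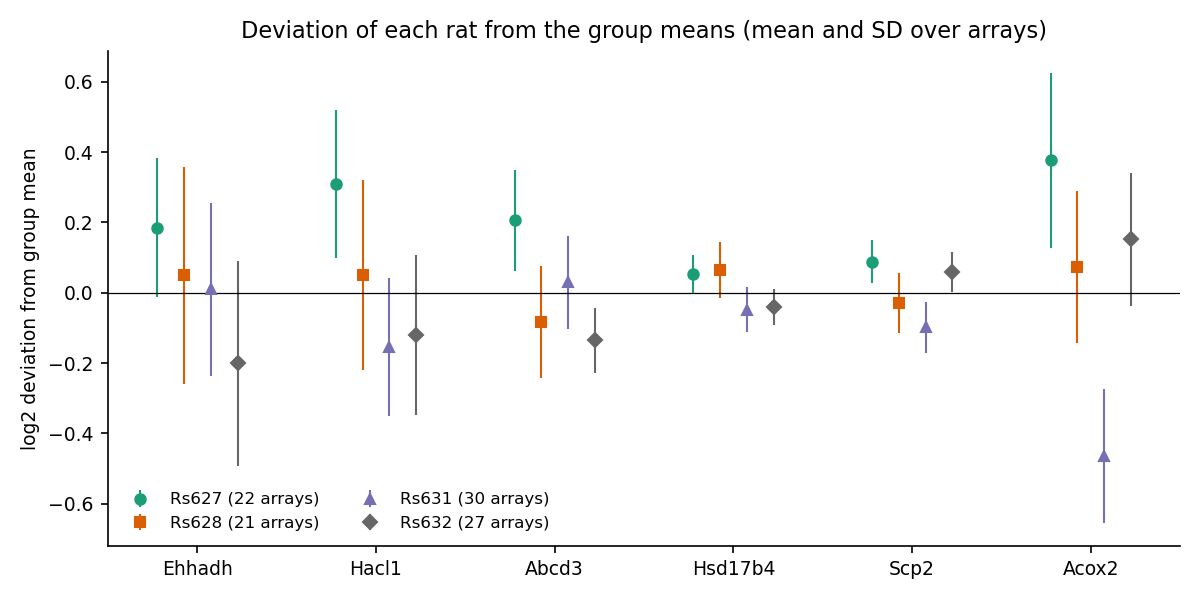
Mean deviation from the group mean (log2, vertical axis) for each rat and member, with bars for the SD over that rat's arrays (21 to 30). Acox2 spreads most, with Rs631 at -0.464 and Rs627 at 0.376, and Hsd17b4 least.

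Many other genes of peroxisomal fatty acid metabolism rose too. Of 29 genes listed, 22 could be tested, and 3, 10, 13, 14 and 17 of them rose at 1 µM at 2, 6, 12, 24 and 72 h, with 0 called lower (limma; 0 lower at an unadjusted p under 0.05). Of all genes, 0.373%, 2.04%, 5.41%, 29.6% and 26.8% were called at these times. Their median log2 change was 0.08, 0.25, 0.55, 0.76 and 0.95. With the rat as a replicate block 6 rose at 2 h and 17 at 24 h, where that model called 0.837% and 49.8% of all genes. The 3 called at 2 h were Crat (carnitine acetyltransferase, 1.09), Mlycd (malonyl-CoA decarboxylase, 0.82) and Nudt7 (a CoA diphosphatase, 0.82), so Ehhadh was not alone at that time.

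At 24 h Crat changed by 3.07 ± 0.21 (SE), or 8.40-fold (adjusted p = 1.36e-20), and Acot8, a peroxisomal acyl-CoA thioesterase, by 2.22 ± 0.14, or 4.67-fold (7.63e-22). Nudt7 was 4.44-fold higher, Mlycd 3.80-fold, Ech1 (a dienoyl-CoA isomerase) 2.86-fold and Dhrs4 (a carbonyl reductase) 1.88-fold. Among those that did not pass at 24 h were enzymes that act before Hacl1 or Acox2, Phyh (phytanoyl-CoA hydroxylase, 0.54, adjusted p = 0.08) and Amacr (a racemase, 0.40, adjusted p = 0.117). Nudt19 stood at 0.29 (adjusted p = 0.143). These 3 passed at 72 h, and with the replicate block they passed at 24 h as well, Phyh at 0.48 (adjusted p = 6.27e-06), Amacr at 0.47 (0.000148) and Nudt19 at 0.33 (0.00696). Phyh (0.34, adjusted p = 0.00399) and Amacr (0.32, adjusted p = 0.0316) passed at 12 h with the block too. Also not past the threshold at 24 h were Abcd4 (-0.35, adjusted p = 0.226), Slc25a17 (the CoA carrier, -0.07, adjusted p = 0.521), Eci3 (0.10, adjusted p = 0.612), Hao1 (0.15, adjusted p = 0.741) and Hao2 (-1.18, adjusted p = 0.646).

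Hao2, a hydroxyacid oxidase, differed between rats so widely (SD 2.45 at 1 µM, n = 4, and 2.42 at 0 µM, n = 3, at 24 h) that its SE was 1.89. With the replicate block Hao2 fell by 1.61 at 24 h (adjusted p = 4.78e-05) and by 1.96 at 72 h (adjusted p = 1.13e-07). All rats with both arrays were lower at 1 µM, 3 of 3 at 24 h and 4 of 4 at 72 h. At 10 µM and 6 h Slc25a17 was the only gene of this list called lower in any of the 25 combinations without the block, by -0.40 ± 0.09 (SE; adjusted p = 0.00141). With the block 3 genes were lower there, Slc25a17 (-0.39, adjusted p = 0.000119), Abcd4 (-0.53, adjusted p = 0.0269) and Hao2 (-1.29, adjusted p = 0.00462), and 14.5% of all genes were called. With the block Hao2 was also lower at 10 µM at 12 h (-1.09, adjusted p = 0.022), 24 h (-1.54, 0.000327) and 72 h (-2.50, 1.33e-09), and at 0.1 µM at 72 h (-1.14, 0.00646).

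**Figure D5:**
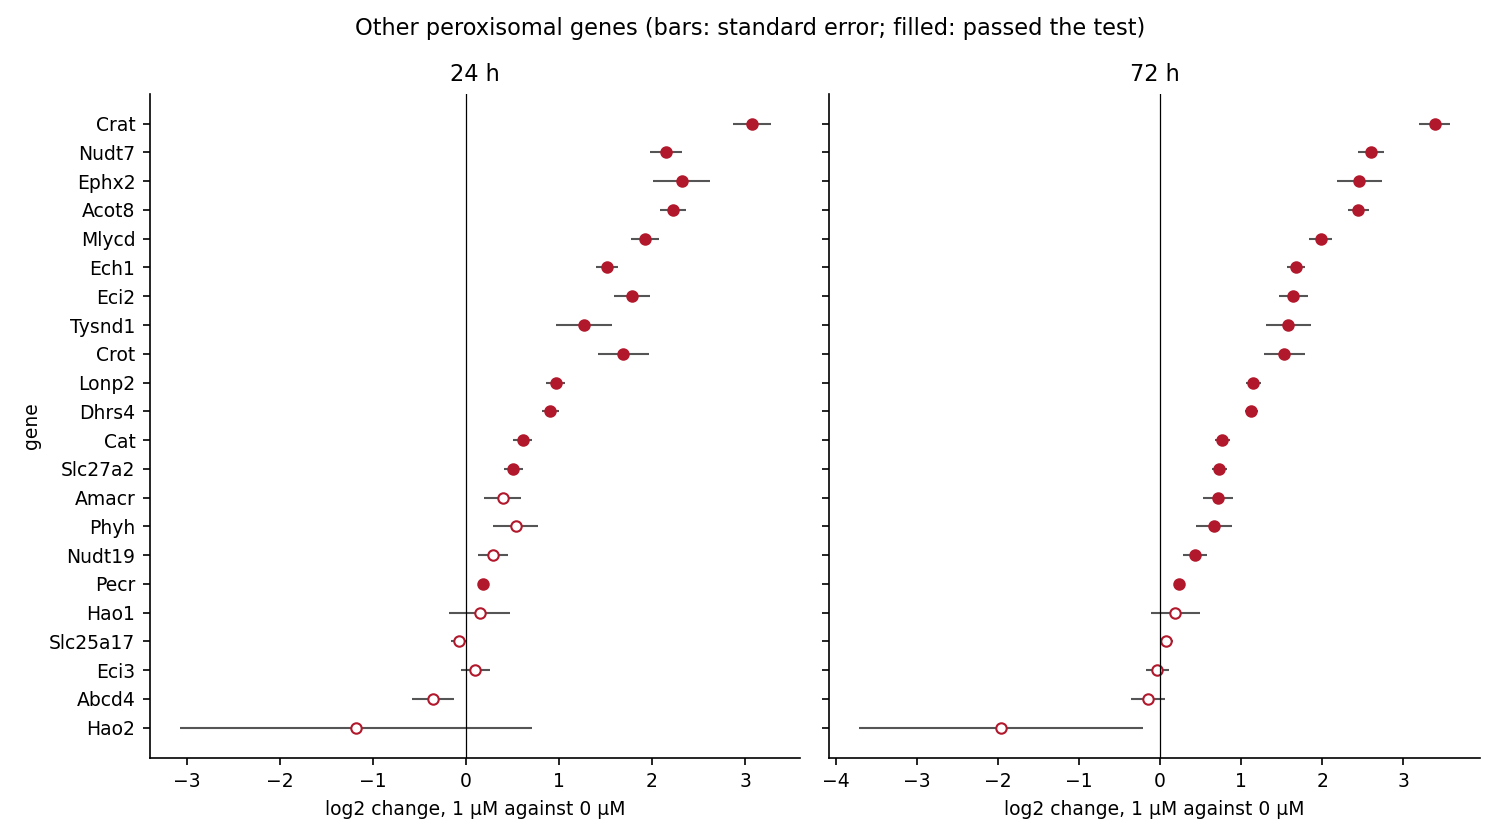
Log2 change at 1 µM against 0 µM (horizontal axes, bars for the SE of the model) of the 22 tested genes of the wider peroxisomal list at 24 and 72 h, in the order of the change at 72 h; filled points passed the test. Crat, Nudt7, Ephx2 and Acot8 lead, and Hao2, with its wide bar, lies lowest.

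The mitochondrial β-oxidation genes, 17 listed and tested, gave 0, 10, 15, 17 and 17 calls upward at 1 µM at 2, 6, 12, 24 and 72 h, and none downward (limma; at 2 h 6 were higher and 0 lower at an unadjusted p under 0.05, and 3 passed with the replicate block). The shares of all genes called at these times were 0.373%, 2.04%, 5.41%, 29.6% and 26.8%, and 0.837% at 2 h with the block. Their median log2 change was 0.17, 0.46, 0.86, 1.15 and 1.40. The peroxisomal members' medians of 0.27, 0.75, 0.91, 0.99 and 1.11 stand beside these, and the difference between the lists was not tested. At 10 µM against 1 µM, averaged over the times, 0 of the 22 peroxisomal and 0 of the 17 mitochondrial genes passed.

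Some measures of the arrays differed between GW7647 and 0 µM at some times. The summed hepatocyte markers averaged 14.92 at 10 µM and 15.06 at 1 µM at 72 h, against 15.48 at 0 µM. At 2, 6, 12 and 24 h they averaged 15.49, 15.52, 15.57 and 15.34 at 1 µM, against 15.56, 15.55, 15.58 and 15.53 at 0 µM, and ranged from 14.7 to 15.7 over all arrays. The summed bile duct markers averaged 10.02 at 1 µM and 10.53 at 0 µM at 72 h, and Epcam alone averaged 10.3 over all arrays. The 75th percentile averaged 6.69 at 1 µM and 6.99 at 0 µM at 24 h, 7.18 at 1 µM and 7.15 at 0 µM at 2 h, and 6.90 at 1 µM and 6.98 at 0 µM at 72 h. The 3′ minus 5′ difference of the actin control probe sets averaged 1.97 at 1 µM and 1.66 at 0 µM at 72 h, 1.83 at 1 µM and 1.93 at 0 µM at 24 h, and 1.49 at 1 µM and 1.51 at 0 µM at 6 h. These measures were not tested, and their part in the members' changes was not tested. In whole cultures, fewer cells of a type and less RNA per cell cannot be told apart.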

How the data were processed

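Total RNA of 100 cultures was hybridised to Affymetrix rat arrays after biotin labelling of amplified RNA, 1 array per culture, per the labels' protocols. The values, deposited as log2 intensities of each probe set, were not scaled again. The submitters' processing notes name GCRMA and Partek, with no version and no account of what each did. Of 31139 probe sets 19069 name exactly 1 gene (61.2%), 572 several and 11498 none, by the platform annotation. Each gene was taken by its probe set of highest mean (13439 genes), and 8843 genes above log2 5 in at least 3 arrays were tested. Array data have no read depth; precision depends on how many arrays a group has.

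A linear model with 30 group means (70 residual degrees of freedom) was fitted in R 4.3.3 with limma 3.58.1 and statmod 1.5.0, with moderated variances and two-sided p-values adjusted by Benjamini-Hochberg over all 8843 genes in each of 34 comparisons, at 0.05. The model was tested on simulated data with independent noise on each array and no difference between rats. That test therefore does not cover the likeness of arrays from the same rat. Promoters come from RefSeq (GRCr8). Motif searches and figures used Python 3.11.15 and matplotlib 3.10.9.

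The members and lists were chosen with earlier results of these data known. Named are the 9 members, up to 6 genes of the wider peroxisomal list by p at 1 µM and 24 h with all that did not pass there, Decr1, and the 5 genes most like the members and most like Ehhadh. Beyond this rule, Hao2, Slc25a17, Abcd4, Phyh and Amacr at other times, and the genes called at 2 h, were singled out after their values were seen.

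The labels give the rat of each culture, which pairs the groups by animal. Array deviations from the group means correlated at a median of 0.62 within rats (lowest rat 0.519) and -0.23 between rats, and 95 of 100 arrays were nearest to one of the same rat. The rat as a replicate block is an alternative, printed where it changes the call of a member, the call of a wider-list gene named at that comparison, or a count of members by over 1.5 times. Other alternatives are a fit to the compared times alone, one mean per rat, no filter or one at log2 7, quantile normalization, a trend with robust prior, every probe set, median centring, the probe set of second highest mean, leaving out arrays of low signal, at repeated plate positions (23 arrays), with labels ending in 2 (5 arrays) or the 0 µM 12 h arrays of Rs627 and Rs628, and leaving out each rat. The last of these array sets together with the block, and all probe sets named or not, were added after seeing the data. Plates, dates and batches are not named in the labels.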

Additional observations from a re-analysis of the deposited data

Results flagged for a closer look

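In groups of 4 or more arrays, 84 combinations of member and group were examined for a single array far from the others. In all 2 stood out, fewer than the about 1 in 20 that chance gives. The Acox2 value of Rs631 at 0 µM and 6 h was 7.46, against 8.13 to 8.16 in the other 3 rats. Low Acox2 was general in this rat, whose arrays lay 0.464 below their group mean on average, with 0 of 30 above it. The Abcd2 value of Rs632 at 1 µM and 12 h was 3.56, against 2.91 to 2.93 in the others, and all of these lie under the floor of log2 5.

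The change at 1 µM differed between 72 and 2 h, by the test of the difference itself, for 5 members. It was larger at 72 h by 3.05 for Ehhadh, 2.65 for Hacl1, 1.06 for Abcd3, 0.62 for Hsd17b4 and 0.50 for Scp2.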

How the results depend on the processing

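Of 76 member calls under 18 alternatives (1368 results), 1305 kept the call, 63 lost it and 0 changed sign. The calls at 1 and 10 µM for Ehhadh, Hacl1, Abcd3 and Hsd17b4 from 6 h on kept their side of the threshold under all of these. The rat as a replicate block changed no member call other than those the report gives. Calls at 0.01 µM, at 1 against 0.1 µM and for Scp2 were among those lost when single rats were left out. Abcd2 and weaker signals are limited by the floor, and the levels of Acaa1a and Decr2 by shared probe sets. The causes of the changes below were not tested.

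Smaller moves in the number of members called, within the bound stated above for counts, are left out here. Among them are rises from calls gained with the rat as a replicate block. Acox2 gained calls at 24 h for 0.1, 1 and 10 µM, at 72 h for 1 and 10 µM, and for 72 minus 2 h. Scp2 did at 0.1 µM and 24 h and for 0.1 against 0.01 µM, Abcd3 at 0.01 µM and 72 h, and Hsd17b4 for 1 against 0.1 µM. The larger moves in the number of members called out of 6 were as follows. With the rat as a replicate block it was 2 in place of 1 for 10 µM at 2 h, 1 in place of 0 for 0.01 µM at 6 h, 2 in place of 1 for 0.01 µM at 12 h, 3 in place of 1 for 0.01 µM at 24 h, 2 in place of 0 for the change at 6 h minus that at 2 h, and 1 in place of 0 for 0 µM at 72 against 2 h. Of all genes, that model called 2.59%, 0.113%, 0.192%, 0.418%, 0.102% and 13% in these comparisons. With the block and without the 0 µM arrays of Rs627 and Rs628 at 12 h it was 2 for 1 µM and 2 for 10 µM at 2 h, 1 at 0.01 µM and 6 h, 3 at 0.01 µM and 24 h, 2 for 6 minus 2 h and 1 for 0 µM over time. At 0.01 µM and 12 h it was 0 with the compared times alone or without those arrays. At 0.01 µM and 24 h it was 2 with a filter at log2 7, median centring, a trend with robust prior, or without arrays of low signal or at repeated positions, and at 6 h 1 without the repeated positions. For 0.01 against 0 µM averaged over times it was 0 with one value per rat. For 1 against 0.1 µM, 2 in the primary model, it was 1 with no filter, quantile normalization, median centring or without labels ending in 2, and 0 without arrays of low signal or at repeated positions. For 6 minus 2 h it was 1 with quantile normalization and 2 without repeated positions. Leaving out each rat in turn gave 0 to 1 for 0.1 µM at 2 h, 2 to 4 for 0.1 µM at 6 h, 0 to 1 for 0.01 µM at 12 h and 0 to 1 at 24 h, 1 to 2 for 0.01 µM at 72 h, 2 to 4 for 0.01 against 0 µM averaged, 0 to 1 for 1 against 0.1 µM averaged, and 0 to 1 for 6 minus 2 h.

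Sign changes occurred among uncalled values near 0, and ranges here are over leaving out each rat in turn. For Scp2 at 0.01 against 0 µM averaged (0.0050) they were -0.00049 with quantile normalization, -0.0019 with median centring and -0.0072 without repeated positions, and the range was -0.018 to 0.047. For Acox2 at 1 against 0.1 µM the value was -0.11 without repeated positions and the range -0.071 to 0.10, and at 10 against 1 µM the value was 0.058 without repeated positions. At 10 against 1 µM the range was -0.0067 to 0.052 for Hsd17b4 and -0.0066 to 0.21 for Hacl1. For 72 minus 24 h, Hsd17b4 was at 0.018 with the replicate block, 0.016 with the block and without the 12 h arrays, 0.010 with median centring, with a range of -0.024 to 0.036. Scp2 was at -0.0058 without repeated positions, and Hacl1 ranged from -0.086 to 0.27. For 0 µM at 72 against 2 h, quantile normalization gave 0.10 for Acox2, 0.054 for Scp2 and 0.15 for Hacl1, median centring 0.11 for Acox2, 0.0024 for Hsd17b4, 0.087 for Scp2 and 0.15 for Hacl1, and the range was -0.28 to 0.042 for Acox2 and -0.22 to 0.18 for Hacl1. A further 77 uncalled member results were followed under 1386 alternatives, in which 81 changed sign and 0 were called. Uncalled results that passed under some alternative, such as Acox2 at 1 µM and 24 h, are not among these 77. The 0 therefore does not describe the uncalled results as a whole.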
